A study of Arabidopsis thaliana with 12 samples.

Results

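Cytochrome P450 genes were examined on Affymetrix ATH1 arrays of Arabidopsis thaliana seedlings. The members were all probe sets that name 1 gene in the platform's names table and whose symbol is CYP followed by a digit, which held for 26 of the 22746 probe sets that are not controls. The symbol CYP is shared by another protein family in plants. The RefSeq synonyms describe 24 of the 26 as cytochromes P450 and 2, CYP59 (AT1G53720) and CYP71 (AT3G44600), as cyclophilins, so the P450 genes are counted here as 24 and the cyclophilins are described apart. RefSeq lists 241 genes with such a symbol, not split by family, so the 26 members are a small part of them. Of the 24, 19 belong to subfamily CYP71B, and CYP51G2, CYP718, CYP78A9, CYP79A2 and CYP84A4 stand for 1 gene each of other families.

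Seedlings were 7 days old and light-grown, and all carried mutations in the synthesis or the perception of gibberellin (GA), with no wild type among them. The ga-1 mutant (SALK_109115) is impaired in making GA, while the triple mutant gid1a-1 gid1b-1 gid1c-2 (gid1 in what follows) carries alleles of all 3 GID1 receptor genes, whose products perceive it. Each mutant is represented by 1 line. The 4 groups were ga-1 with the gibberellin GA3 at 100 µM for 1 h, ga-1 after a mock treatment of the same length, gid1 with GA3, and gid1 mock, with 3 arrays each that the submitters describe as independent biological replicates. The study asks which genes respond to GA early in ga-1, and whether these genes fail to respond without the receptors.

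Cytochromes P450 are heme-containing monooxygenases, which in plants mostly sit in the membrane of the endoplasmic reticulum and take electrons from an NADPH-dependent reductase. Their names follow sequence similarity, a number for the family and a letter for the subfamily. P450 enzymes carry out steps in making or breaking down most plant hormones, GA among them (ent-kaurene oxidase and ent-kaurenoic acid oxidase), and in making lignin, sterols, pigments and defence compounds. CYP71 is a large plant family in which many enzymes act in defence chemistry.

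The values are MAS5 signals, a brightness on a linear scale scaled to the same trimmed mean on each array, and levels of different probe sets cannot be set against each other. Array medians lay between 169.5 and 188.5, and correlations between arrays over all non-control probe sets, on the log2 scale, ran from 0.911 to 0.942. The receptor genes GID1A and GID1B were lower in gid1 mock than in ga-1 mock by log2 differences of -3.52 and -3.05 (limma, adjusted p = 2.4e-07 and adjusted p = 3.6e-06), in the direction of the labels, while the difference of GID1C, 0.29, did not pass (adjusted p = 0.99). The tissue could be checked with few markers. The 1 green-tissue marker with a named probe set, LHCB4.1 of the light-harvesting complex, had signals from 19154 to 23860 on all arrays. The 2 root-hair expansins, EXPA7 and EXPA18, had a mean log2 level from 6.50 to 7.19. Of 20 seed and early-germination genes, 8 had a named probe set, and their mean log2 level was 6.36, 7.07 and 6.88 in gid1 with GA3, against 5.30, 4.46 and 5.34 in gid1 mock. It was 4.94, 5.17 and 5.30 in ga-1 with GA3, against 4.50, 6.65 and 5.87 in ga-1 mock. The 8 genes did not move together. In gid1, AT2G18540 (4.20 against 4.33) and AT1G03890 (2.60 against 3.90) had lower group means with GA3 than in mock. The rest had higher ones, from AtLEA4-1 (5.49 against 5.18) to LEA18 (7.02 against 2.19). Only 4 of the 8 passed the low-signal filter given below, and the lowest signal of LEA18 was 1.6. In whole seedlings, fewer cells of a type and less RNA per cell cannot be told apart.

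Many P450 probe sets had low signals. A filter at the 30th percentile of the mean log2 value over all arrays passed 12 of the 24 P450 probe sets (50%), against 70.0% of all non-control probe sets. Those that passed were 11 of the 19 CYP71B genes (CYP71B5, CYP71B6, CYP71B23, CYP71B24, CYP71B26, CYP71B28, CYP71B29, CYP71B34, CYP71B35, CYP71B36 and CYP71B37) and CYP84A4. The plot of signals by array shows these 12 in every group. Their within-group SD on the log2 scale had a median of 0.32, from 0.14 to 0.56, against a median of 0.22 for all 15922 probe sets tested.

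**Figure D1:**
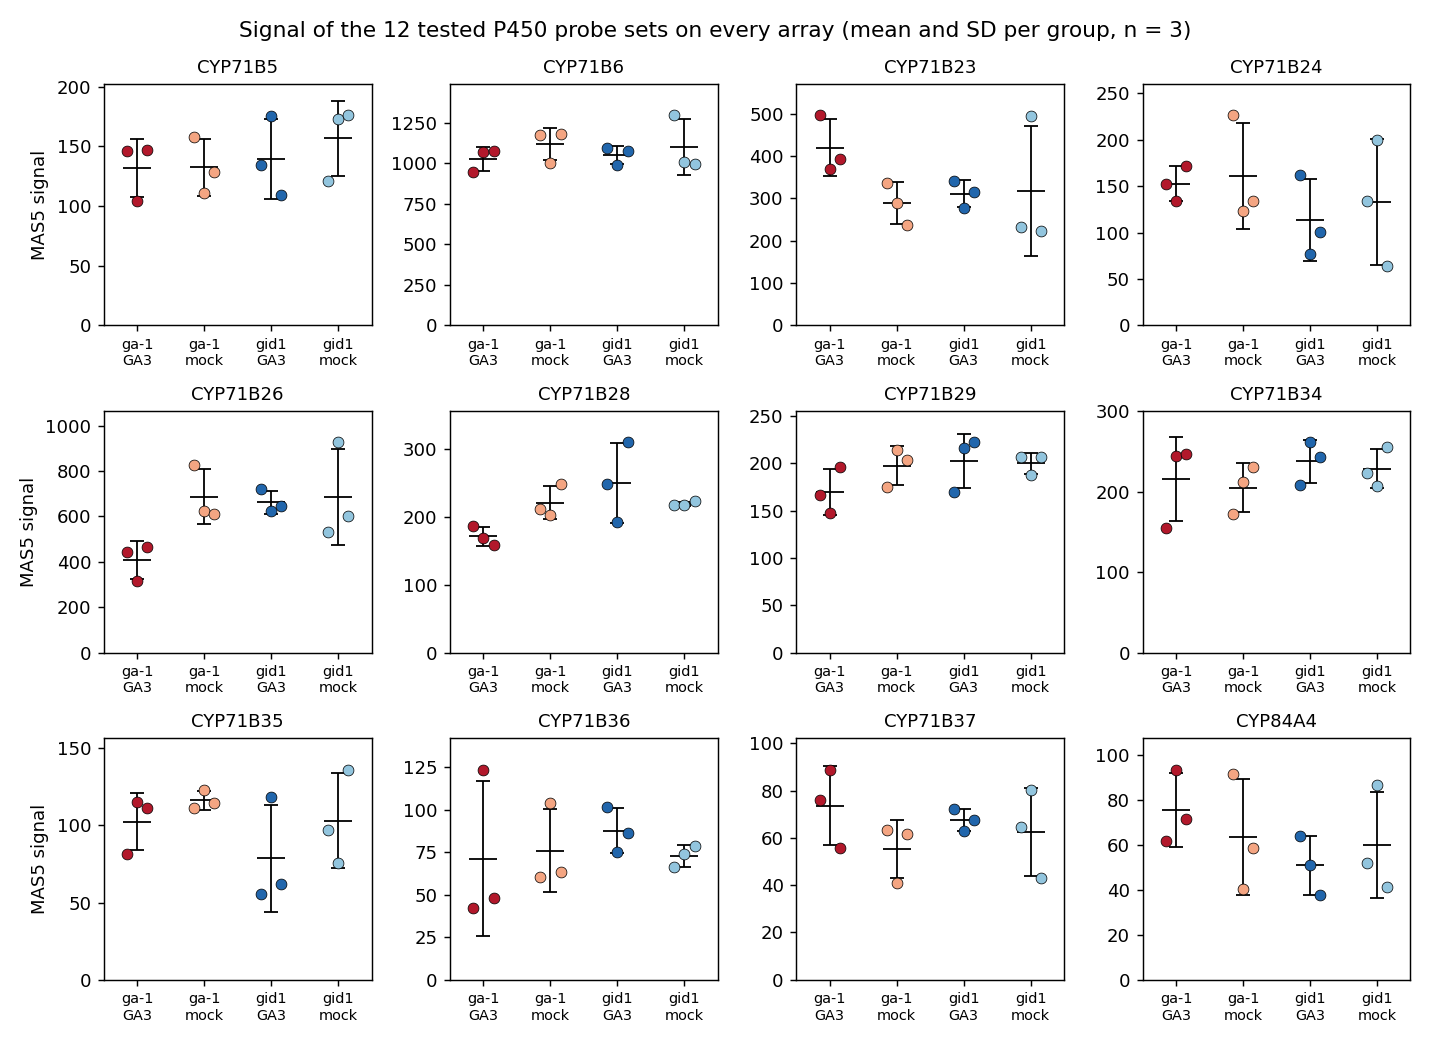
Each panel plots the MAS5 signal (linear scale, from 0) of 1 tested P450 probe set on all 12 arrays. Points are arrays, and bars give the mean and SD of each group (n = 3). In the panel of CYP71B26 the ga-1 arrays with GA3 sit between 313.2 and 464.6, below every other array, while in most other panels the groups overlap.

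The first comparison asked which P450 genes respond to GA3 in ga-1. CYP71B26 (AT3G26290) stood furthest apart. Its signal was 444.7, 313.2 and 464.6 in ga-1 with GA3, against 826.8, 622.9 and 610.5 in ga-1 mock. The GA3 arrays all lay below the mock arrays, with means of 408 ± 82.3 with GA3 and 687 ± 121 in mock (SD, n = 3). The log2 difference was -0.76 ± 0.20 (SE; 95% interval -1.18 to -0.34), or 0.59 times the mock level. Adjusted over all probe sets tested, it missed the threshold of 0.05 in limma, which was fitted to all 4 groups at once (adjusted p = 0.12). Leaving out single arrays moved this result both ways. Without gid1 mock replicate 2, which alters only the spread, the same difference had an adjusted p of 0.0498 (limma). Without ga-1 GA3 replicate 2, which holds the value 313.2, the difference was -0.58 (limma, adjusted p = 0.47). That array had the highest median, 188.5, and its best correlation with any other array, 0.921, was the lowest such value. Without ga-1 mock replicate 1, which holds 826.8, the difference was -0.62 (limma, adjusted p = 0.54). The mean log2 level of the seed markers was lower in ga-1 with GA3 than in 2 of the 3 ga-1 mock arrays. By group mean, AT4G36700, AT2G18540 and AtLEA4-1 went the other way. The part of the seed markers in the difference of CYP71B26 was not tested.

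CYP71B23 (AT3G26210) was the gene furthest on the higher side. It had 496.2, 368.6 and 393.7 in ga-1 with GA3, against 336.9, 289.8 and 237.6 in ga-1 mock. The groups did not overlap, and the log2 difference of 0.54 ± 0.25 (SE; 95% interval 0.02 to 1.07) did not pass (limma, adjusted p = 0.62). CYP71B28 (AT1G13090) had 186.5, 169.9 and 158.6 with GA3, against 212.3, 203.4 and 249.2 in mock. Its groups did not overlap either, with a log2 difference of -0.37 ± 0.19 (SE; 95% interval -0.76 to 0.03; limma, adjusted p = 0.68). CYP71B29 (AT1G13100), its neighbour on chromosome 1, had 166.3, 147.3 and 195.8 with GA3, against 175.0, 214.0 and 203.5 in mock, groups that overlap, with a log2 difference of -0.22.

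CYP71B6 (AT2G24180), which acts in the conversion of indole-3-acetonitrile to indole carbonyl compounds, was measured most closely. It averaged 1028 ± 73.2 in ga-1 with GA3 and 1119 ± 100.2 in ga-1 mock (SD, n = 3), a log2 difference of -0.12 with a 95% interval of -0.39 to 0.15. CYP84A4 (AT5G04330), an enzyme of arabidopyrone synthesis related to the lignin enzyme ferulate 5-hydroxylase, was measured least closely, with 61.5, 93.4 and 71.6 in ga-1 with GA3, against 91.3, 40.3 and 58.7 in ga-1 mock. The groups overlap, and the log2 difference of 0.31 has a 95% interval from -0.57 to 1.19. The other 6 CYP71B genes tested overlapped between groups, with log2 differences of 0.41 for CYP71B37, 0.05 for CYP71B34, -0.01 for CYP71B5, -0.03 for CYP71B24, -0.20 for CYP71B35 and -0.22 for CYP71B36. The value of CYP71B36 depended on single arrays. It was -0.71 without ga-1 GA3 replicate 2 (limma, adjusted p = 0.80) and 0.07 without ga-1 GA3 replicate 1 (limma, adjusted p = 0.98).

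In all, limma called 0 of the 12 tested P450 probe sets in ga-1, where it called 129 of 15922 over the array (0.810%). At an unadjusted p under 0.05 there were 2 of the 12, CYP71B26 and CYP71B23, against 7.83% of all probe sets. The 3 GA3 arrays lay wholly below the mock arrays for 2 of the 12, against 7.17% of all tested, and wholly above for 1 of the 12, against 6.85%. Each of these counts is within about 1 gene of what the background share gives for 12 genes. The median log2 difference was -0.08 over the P450 genes and 0.01 over all probe sets, and 8 of the 12 were negative. For 7 of the 12 the 95% interval lay within a 2-fold change either way, and for the other 5 a 2-fold change was not resolved.

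**Figure D2:**
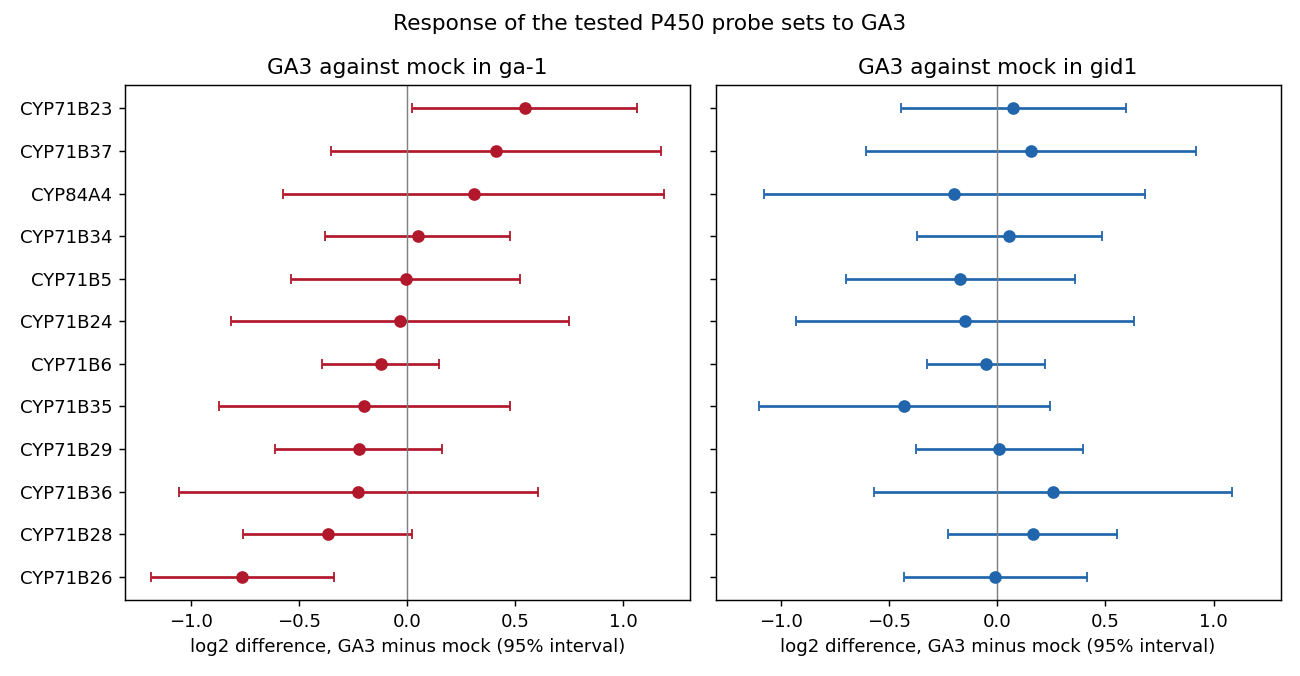
The log2 difference between GA3 and mock (x axis, points) with its 95% interval (bars) is plotted for the 12 tested P450 probe sets, in ga-1 on the left and in gid1 on the right. In ga-1 the intervals of CYP71B26 (-1.18 to -0.34) and CYP71B23 (0.02 to 1.07) exclude 0 before adjustment, and in gid1 every interval includes 0.

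The second comparison asked whether the genes respond to GA3 in gid1. CYP71B26 had 719.0, 622.1 and 646.0 in gid1 with GA3, against 529.8, 925.9 and 601.7 in gid1 mock. The GA3 arrays all lay inside the range of the mock arrays, and the log2 difference was -0.01 (95% interval -0.43 to 0.41; limma, adjusted p = 1.00). CYP71B23 had 340.7, 277.5 and 315.4 with GA3, against 233.4, 493.1 and 222.7 in mock, again inside the mock range (log2 difference 0.07). That value rested on 1 array: without gid1 mock replicate 2 it was 0.44 (limma, adjusted p = 0.68). Replicate 2 of gid1 mock was the highest array of its group for 5 of the 12 tested genes (CYP71B23, CYP71B24, CYP71B26, CYP71B37 and CYP84A4), the lowest for 3 (CYP71B29, CYP71B34 and CYP71B35) and in the middle for 4. Without it the log2 difference of CYP71B26 in gid1 was 0.23, that of CYP71B24 was 0.22, that of CYP84A4 was 0.10 and that of CYP71B37 was 0.36, and none passed.

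CYP71B35 (AT3G26310) had the widest log2 difference in gid1, with signals of 55.8, 118.0 and 61.7 with GA3, against 97.0, 75.4 and 136.1 in mock. The groups overlap, and the log2 difference of -0.43 ± 0.32 (SE) did not pass (limma, adjusted p = 0.94). CYP71B28 had 249.2, 193.0 and 310.5 with GA3, against 218.3, 218.5 and 223.3 in mock, where the mock arrays lay close together and the GA3 arrays on both sides of them (log2 difference 0.16). The others ran from -0.20 for CYP84A4 to 0.26 for CYP71B36, with CYP71B37 at 0.15, CYP71B34 at 0.06, CYP71B29 at 0.01, CYP71B6 at -0.05, CYP71B24 at -0.15 and CYP71B5 at -0.17.

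Limma called 0 of the 12 in gid1, and 0 of 15922 over the array (0.00%). At an unadjusted p under 0.05 there were 0 of the 12, against 5.26% of all probe sets. The arrays of the groups overlapped for all 12, where 4.37% of all tested lay wholly below and 4.74% wholly above mock. The median log2 difference was -0.00026 over the P450 genes and 0.01 over all probe sets. In 9 of the 12 the 95% interval lay within a 2-fold change either way.

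The third comparison tested the difference of the responses, ga-1 minus gid1. It was widest in size for CYP71B26, at -0.75 ± 0.28 (SE; 95% interval -1.35 to -0.15), and did not pass (limma, adjusted p = 0.60). CYP71B28 followed at -0.53 ± 0.26 (SE; limma, adjusted p = 0.78). CYP84A4 (0.51), CYP71B36 (-0.48) and CYP71B23 (0.47) had differences nearly as wide with larger errors. Without gid1 mock replicate 2 the difference was 0.10 for CYP71B23, 0.21 for CYP84A4 and -0.99 for CYP71B26, none of which passed (limma, adjusted p = 0.94, adjusted p = 0.95 and adjusted p = 0.18). Over all alternatives the difference ran from -0.99 to -0.57 for CYP71B26 and from -0.97 to -0.19 for CYP71B36. The -0.97 of CYP71B36 came without ga-1 GA3 replicate 2 (limma, adjusted p = 0.87), so the gene with the widest difference depended on the arrays kept. CYP71B37 (0.26), CYP71B35 (0.23), CYP71B29 (-0.23), CYP71B5 (0.16), CYP71B24 (0.12), CYP71B6 (-0.07) and CYP71B34 (-0.01) completed the set. None of the 12 was called, against 0.220% of all probe sets, and 1 of the 12, CYP71B26, had an unadjusted p under 0.05, against 6.53% of all. A different response of any P450 gene in the 2 mutants was therefore not shown. Of the 4 seed markers tested, AT3G02480 passed in this comparison, at -4.77 (limma, adjusted p = 0.018). ICL at -5.48 and PAP85 at -2.83 did not pass (limma, adjusted p = 0.18 and adjusted p = 0.37). AT4G36700 lay on the other side of 0, at 0.23 (limma, adjusted p = 0.95). The part of the seed markers in the P450 values was not tested. The intervals were wide here, with a half-width up to 1.25 on the log2 scale, and 4 of the 12 lay within a 2-fold difference.

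The fourth comparison set gid1 against ga-1 after mock treatment. CYP71B26 averaged 686 ± 211 in gid1 mock and 687 ± 121 in ga-1 mock (SD, n = 3), a log2 difference of -0.03 (95% interval -0.45 to 0.39). CYP71B28 averaged 220 ± 2.83 in gid1 mock and 222 ± 24.3 in ga-1 mock, and CYP71B6 averaged 1099 ± 171 in gid1 mock and 1119 ± 100.2 in ga-1 mock. The widest log2 differences were -0.38 for CYP71B24, 0.23 for CYP71B5, -0.22 for CYP71B35, 0.16 for CYP71B34 and 0.16 for CYP71B37, and all adjusted p were 0.99 or more (limma). Without gid1 mock replicate 2 the log2 difference was -0.75 for CYP71B24, -0.38 for CYP84A4, -0.32 for CYP71B23 and -0.27 for CYP71B26, none of which passed. Another array moved CYP71B24 as well, to 0.08 without gid1 mock replicate 3. None of the 12 was called, against 0.0188% of all probe sets, and none had an unadjusted p under 0.05, against 4.58% of all. The groups overlapped for all 12, where 6.03% of all tested lay wholly below and 5.01% wholly above. In 11 of the 12 the interval lay within a 2-fold difference either way.

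The levels of CYP71B26 in the 4 groups led to a further comparison, chosen after its values were seen, between the mutants with GA3. It shares the ga-1 arrays with GA3 with the first comparison and is not independent of it. CYP71B26 averaged 408 ± 82.3 in ga-1 with GA3 and 662 ± 50.5 in gid1 with GA3 (SD, n = 3), without overlap, a log2 difference of -0.72 ± 0.20 (SE; limma, adjusted p = 0.12). The mean log2 level of the seed markers also did not overlap between these groups. It was 4.94 to 5.30 in ga-1 with GA3 and 6.36 to 7.07 in gid1 with GA3. By gene, AT4G36700 (7.60 against 7.43) and AT2G18540 (4.57 against 4.20) went the other way. The rest were lower in ga-1 with GA3, from AtLEA4-1 (5.33 against 5.49) to LEA18 (2.61 against 7.02). The part of the seed markers in the difference was not tested. CYP71B28 averaged 172 ± 14.0 in ga-1 with GA3 and 251 ± 58.8 in gid1 with GA3, also without overlap (log2 difference -0.52 ± 0.19, SE; limma, adjusted p = 0.26). CYP71B23 averaged 420 ± 67.6 in ga-1 with GA3 and 311 ± 31.8 in gid1 with GA3, the 1 gene wholly above. None of the 12 was called, against 1.26% of all probe sets, and arrays lay wholly below for 2 of the 12, against 6.98%, and wholly above for 1, against 6.72%.

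Many of the CYP71B genes are neighbours. By RefSeq gene order (TAIR10.1), 11 of the members stand on chromosome 3 from AT3G26150 to AT3G26330, a stretch of 24 genes of which 18 are annotated as P450 genes. Smaller groups are CYP71B27, CYP71B28 and CYP71B29 on chromosome 1, within 4 genes, and CYP71B5, CYP71B30P and CYP71B31 on chromosome 3, within 4 genes. Genes of such rows are close relatives, so a probe set can take up transcripts of a neighbour, and how far these probe sets do was not tested.

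Along the chromosome 3 row, neighbours differed in whether they passed the filter and in their values. The first 3 members, CYP71B16, CYP71B21 and CYP71B22, lay below it, CYP71B23 and CYP71B24 passed, CYP71B25 lay below, and CYP71B26, CYP71B34, CYP71B35, CYP71B36 and CYP71B37 passed. In ga-1 the 7 tested genes of the row had log2 differences between GA3 and mock from -0.76 (CYP71B26) to 0.54 (CYP71B23), with a median of -0.03. In gid1 they ran from -0.43 (CYP71B35) to 0.26 (CYP71B36), with a median of 0.06. The 2 genes at the ends of the ga-1 range, CYP71B23 and CYP71B26, lie 7 and 18 genes from the first gene of the row. The members between them are CYP71B24 (-0.03) and CYP71B25, below the filter. Genes that are no members also lie between them. The genes CYP71B19 and CYP71B20, which also lie in this row, share 1 probe set and are no members, and its log2 difference was -0.20 in ga-1 and 0.02 in gid1 (limma, adjusted p = 0.85 and adjusted p = 1.00).

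**Figure D3:**
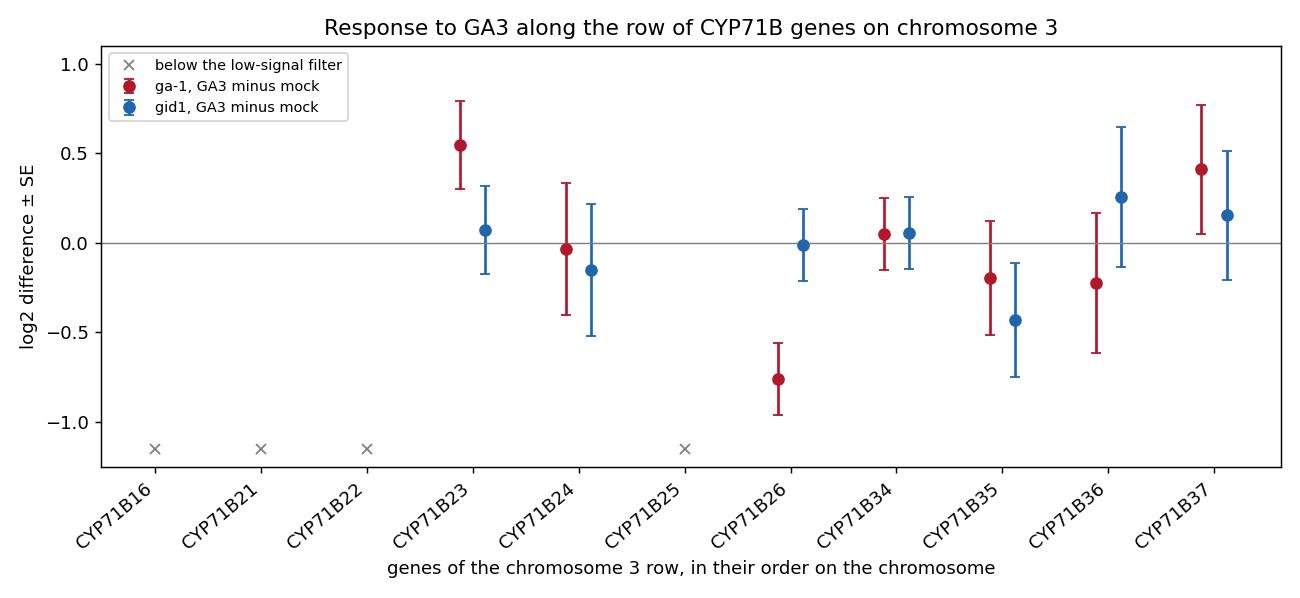
The log2 difference between GA3 and mock (y axis, points, with SE as bars) is plotted in ga-1 (red) and gid1 (blue). The x axis gives the CYP71B members of the chromosome 3 row in their order, evenly spaced, without the other genes of the row. Crosses at the bottom mark members below the filter, which have no value here. CYP71B23 (0.54) and CYP71B26 (-0.76) lie on opposite sides of 0 in ga-1, with CYP71B24 near 0 between them.

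The other 12 P450 probe sets lay below the filter and were left out of the comparisons above. A fit without the filter, which took in all 24, called 0 of them in each comparison. Their signals ran from 0.4 to 83.2 over all arrays, and 4 values, in 3 of the probe sets, were under the floor of 1. Their within-group SD on the log2 scale had a median of 1.27, from 0.56 to 2.04, so that replicates of 1 group often differed several-fold. CYP79A2 (AT5G05260), which makes phenylacetaldoxime for benzylglucosinolate, had 1.4, 44.6 and 3.1 in ga-1 with GA3, against 16.3, 1.3 and 1.2 in ga-1 mock, and 0.9, 6.3 and 2.1 in gid1 with GA3, against 11.6, 2.2 and 24.8 in gid1 mock. A single array carried most of the ga-1 signal in each group.

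CYP78A9 (AT3G61880), of a family that promotes organ growth and known from fruit and ovules, had 39.6, 15.7 and 14.2 in ga-1 with GA3, against 55.1, 6.8 and 4.3 in ga-1 mock. In gid1 it had 6.3, 3.1 and 2.8 with GA3, against 10.9, 25.5 and 26.9 in mock, without overlap at these low signals. In the fit without a filter its log2 difference in gid1 was -2.37 (95% interval -4.39 to -0.34) and did not pass (limma, adjusted p = 0.93). The difference of responses was 3.18 there and also did not pass (limma, adjusted p = 0.75). CYP71B31 (AT3G53300), which oxidises linalool in flowers, ran from 0.4 to 18.5 over all arrays. CYP51G2 and CYP71B27 are annotated as transcribed pseudogenes, the first a relative of the sterol demethylase gene, and ran from 15.4 to 83.2 and from 3.5 to 56.0. CYP718 ran from 3.5 to 15.2. The other 6, CYP71B16, CYP71B21, CYP71B22, CYP71B25, CYP71B30P and CYP71B38, had highest signals between 29.1 and 78.6.

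**Figure D4:**
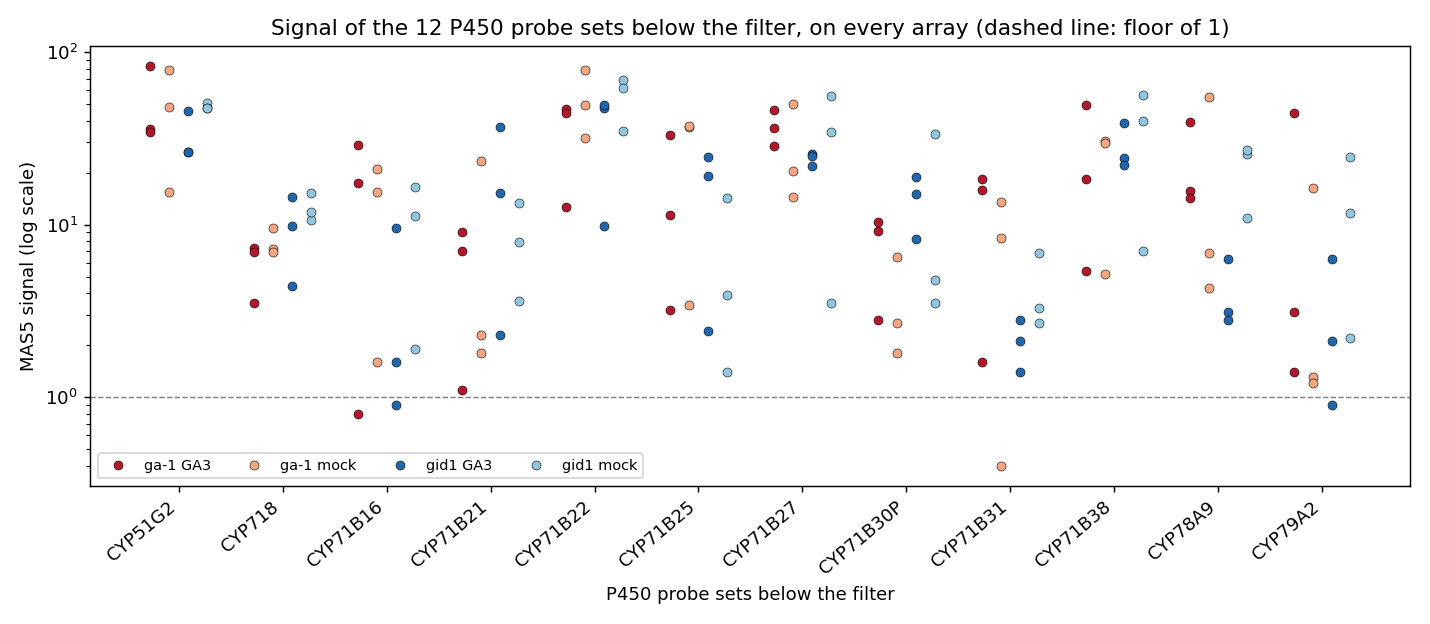
The MAS5 signal (y axis, log scale) of the 12 P450 probe sets below the filter is plotted for all 12 arrays, coloured by group. The dashed line is the floor of 1. Replicates of 1 group often lie several-fold apart, as for CYP79A2 in ga-1 with GA3, with 1.4, 44.6 and 3.1.

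P450 enzymes of known pathways were thinly covered by the names table, which leaves many of the 22746 non-control probe sets without a symbol. A gene without a named probe set can still be on the array. Of 76 P450 genes in 13 lists by role, 4 had a named probe set (CYP79A2, CYP84A4, CYP78A9 and CYP71B31) and 1, CYP84A4, was tested. The lists for gibberellin, brassinosteroid, abscisic acid, jasmonate, auxin and camalexin, cytokinin and strigolactone, sterol, cutin and carotenoid metabolism had none and were not analysed here. Of 71 partner genes in 7 lists, 3 had a named probe set, all were tested and none was called in any of the 4 comparisons. They were UGT74B1, which glucosylates glucosinolate precursors, HCT, which makes the esters that the lignin P450 CYP98A3 hydroxylates, and DFR of anthocyanin synthesis. UGT74B1 averaged 1047 ± 227 in ga-1 with GA3 and 809 ± 146 in ga-1 mock, and 1137 ± 225 in gid1 with GA3 and 843 ± 54.9 in gid1 mock (SD, n = 3), log2 differences of 0.37 and 0.41 (limma, adjusted p = 0.66 and adjusted p = 0.94). HCT had log2 differences of 0.37 in ga-1 and -0.12 in gid1, and DFR of -0.33 and 0.15.

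The cyclophilins, peptidyl-prolyl isomerases unrelated to the P450 enzymes, did not pass in any comparison. CYP59, a nuclear cyclophilin with an RNA recognition motif, had 114.6, 155.3 and 108.1 in ga-1 with GA3, against 86.8, 110.6 and 77.3 in ga-1 mock, which overlap (log2 difference 0.46; limma, adjusted p = 0.73). In gid1 its log2 difference was -0.14. CYP71, a cyclophilin with WD40 repeats that acts on chromatin, averaged 386 ± 24.7 in ga-1 with GA3 and 420 ± 36.8 in ga-1 mock (SD, n = 3; log2 difference -0.12), and its log2 difference in gid1 was 0.19.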

How the data were processed

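Each array's group and replicate number came from its title. Titles and source names were followed where a free-text field gives GA3 for mock arrays as well. Total RNA of whole seedlings (RNeasy) was amplified into biotinylated cRNA, per the labels' protocols. The deposited values are intensities on a linear scale, MAS5 signals per the submitters' processing notes. The mean without the lowest and highest 2% was 500.0 on every array, and this scaling was kept.

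Signals were floored at 1 and taken to log2. The test covered 15922 probe sets, after removal of 64 controls and of those averaging under 5.55, the 30th percentile. A model of 4 group means was fitted with limma 3.58.1 in R 4.3.3 (lmFit, eBayes with trend). P-values were adjusted over all tested (Benjamini-Hochberg, threshold 0.05). The steps were tested on simulated data. With 3 arrays in a group, their number limits precision.

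The rule for named genes took every called P450 gene, the 5 with the smallest p each way per comparison, the genes of the role lists with a named probe set, and the 4 with the widest range of group means. Members and lists were chosen with earlier results of these data known. Of the 22746 non-control probe sets, the names table gives 1 symbol to 13513 and several to 503, and the rest have none. Coordinates, protein and promoter sequences were not used here. Alternatives were quantile and median scaling, no filter or one at the 50th percentile, an offset of 32 in place of the floor, eBayes without a trend, a fit of only the groups compared, a replicate block, each array left out, and an adjusted p under 0.01. Deviations of arrays with the same replicate number correlated between -0.12 and 0.11 (18 pairs), so the numbers were not taken to pair the arrays.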

Additional observations from a re-analysis of the deposited data

How the results depend on the processing

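The count of 0 called P450 probe sets held in all 4 planned comparisons and in the added one under each alternative run, with 1 exception. For GA3 against mock in ga-1, leaving out each array in turn gave counts from 0 to 1, and the 1, CYP71B26, was called without gid1 mock replicate 2 (adjusted p = 0.0498, log2 difference -0.76). Over all 20 alternatives its log2 difference in ga-1 ran from -0.87 to -0.58 and its adjusted p from 0.0498 to 0.54. The lowest value came without ga-1 GA3 replicate 3 and the weakest without ga-1 GA3 replicate 2. With the replicate block the count was 0 in every comparison, and the adjusted p of CYP71B26 in ga-1 was 0.19. The replicate numbers were not taken to pair the arrays, and the block changed no count of called P450 probe sets. With no filter, all 24 P450 probe sets were tested and 0 were called. The difference of responses uses all 4 groups, so a fit of the compared groups alone is the main fit and was not run apart. Signs of uncalled log2 differences changed in 9 of 234 alternative values in ga-1, 19 of 234 in gid1, 12 of 222 in the difference of responses, 28 of 234 between the mock groups and 6 of 234 between the groups with GA3. The largest of these was CYP71B24 between the mock groups, -0.38, which was 0.08 without gid1 mock replicate 3.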
